A study of Mus musculus with 6 samples.

Results

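This account covers 9 genes of cytokine signalling in the mouse thymus, the STAT transcription factors Stat2, Stat3, Stat4, Stat5a, Stat5b and Stat6 and the SOCS feedback inhibitors Socs1, Socs2 and Socs3. They were taken by symbol from a table of 24054 genes, each symbol matched 1 row, and all 9 had enough reads to be tested among 16096 genes. Messenger RNA of whole thymus was sequenced in 3 libraries of K5-rtTA:TetO-RANKL mice, called RANKL here, and 3 libraries of control mice. RANKL mice carry a keratin 5 promoter that drives the doxycycline-dependent activator rtTA, and a TetO transgene that then makes the cytokine RANKL. Control mice were described as monogenic, without saying which transgene they carried, and both groups were given doxycycline in food and water. The labels disagree on the schedule, with a start at 8 weeks of age and a length of 1 week in one text, and a start at 9 weeks and a length of 2 weeks in the other. The keratin 5 promoter is active in basal and medullary epithelium, and the labels give neither strain nor sex.

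Cytokine receptors that lack a kinase of their own bind Janus kinases, which phosphorylate STAT proteins, and paired STAT proteins then enter the nucleus and switch on target genes. SOCS genes are among those targets, and their products bind the receptor or the kinase and shut the signal off. In the thymus, interleukin 7 signals through STAT5 for the survival and growth of early thymocytes, and SOCS1 restrains cytokine signals in developing T cells. STAT3 is needed in medullary epithelium and carries signals of the interleukin 6 and interleukin 10 families, STAT6 carries interleukin 4 and 13, STAT4 carries interleukin 12, and STAT2 joins the interferon-activated complex with IRF9.

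Library totals ran from 18254870 to 25357060 counted reads, so the 9 members had between 210 and 15213 reads in any library. Tnfsf11, the gene of RANKL, stood at 3334, 4812 and 2390 CPM (counts per 1000000 reads, with library totals scaled by TMM factors) in RANKL replicates 1, 2 and 3, against 6.01, 6.34 and 8.89 CPM in the controls. The thymus label could be checked against a list of 10 markers for double-positive thymocytes, the cells that fill the cortex. Some of the 10, such as Ptcra, are also expressed at other stages of T cell development. The summed level of the 10 was 286 to 1151 CPM in RANKL libraries and 11203 to 13214 CPM in control libraries. Summed markers of T cells in general ran from 293 to 753 CPM in RANKL and from 4024 to 5465 CPM in control, with 7 of 7 lower. Epithelial markers summed to 6010 to 8064 CPM in RANKL and 812 to 999 CPM in control, and neutrophil markers to 2817 to 5751 CPM in RANKL and 17.8 to 51.1 CPM in control. Macrophage markers summed to 1531 to 2097 CPM in RANKL and 468 to 648 CPM in control, and fibroblast markers to 3883 to 7650 CPM in RANKL and 373 to 471 CPM in control. All listed genes of these 4 cell types were higher, while all 10 double-positive thymocyte markers were lower. B cell markers summed to 43.1 to 110 CPM in RANKL and 101 to 110 CPM in control, and those of NK and cytotoxic cells to 70.2 to 136 CPM in RANKL and 89.5 to 124 CPM in control. The latter sum hid opposite shifts of 2 genes, named after their values were seen. Gzmb averaged 40.4 CPM in RANKL and 4.26 CPM in control, and Gzma 16.1 CPM in RANKL and 60.3 CPM in control. By the test given below, the other 4 genes of that list and all 5 B cell markers were not called. No marker of any list had 0 reads in any library. In bulk tissue, fewer cells of a type and less RNA per cell cannot be told apart, and the part of these shifts in any member's change was not tested.

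Of the 9 members, Socs3, Socs2, Stat3 and Stat2 rose in RANKL, Stat5b fell, and Stat4, Stat5a, Stat6 and Socs1 did not pass the test. The test was edgeR's quasi-likelihood test at a Benjamini-Hochberg adjusted p under 0.05 over all 16096 genes. By that rule 33.8% of all tested genes were higher and 29.6% lower, 63.4% in all, so the 5 called members of 9 are not a larger share than that of all genes. The median log2 fold change, RANKL over control, was 0.29 for the members and -0.02 for all genes, and the median size without sign was 0.87 and 0.88. The groups did not overlap for 5 of the 9 members, or 55.6%, and for 70.1% of all tested genes.

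**Figure D1:**
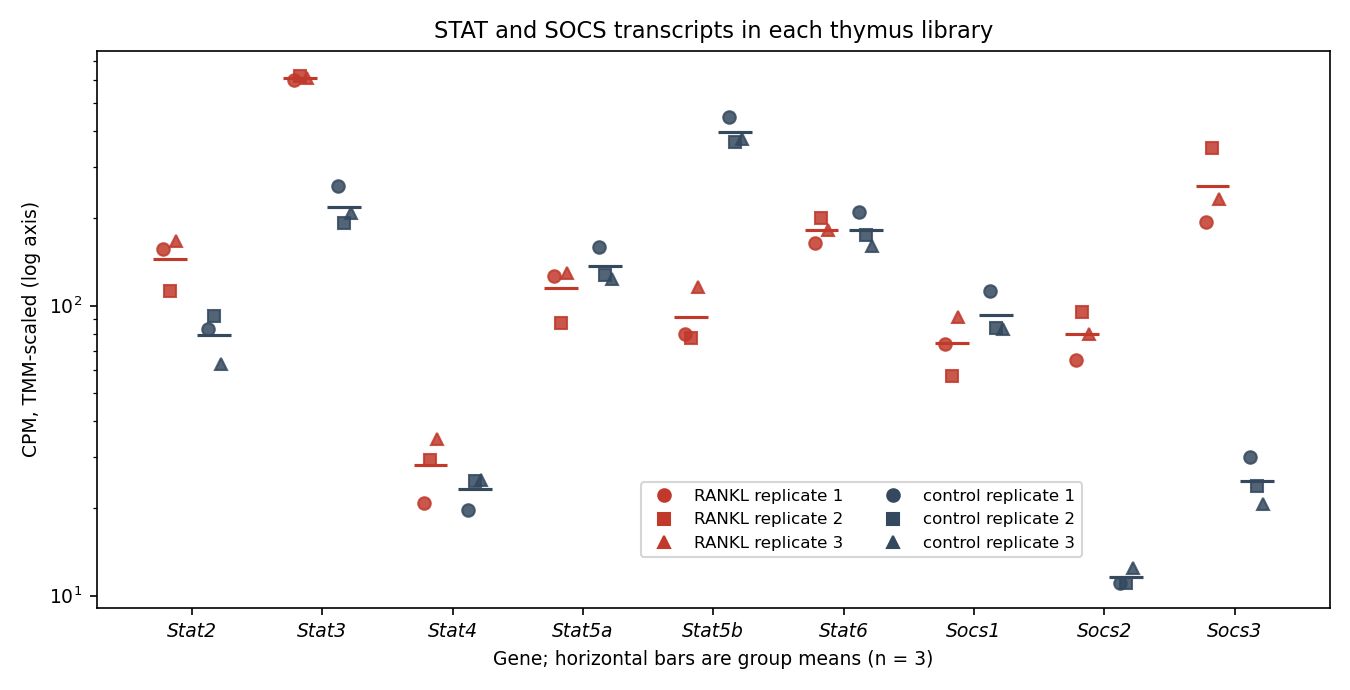
Level of each member in every library, in CPM with TMM-scaled totals on a log axis, with RANKL libraries in red to the left of control libraries in dark blue and bars at the group means. Socs3, Socs2, Stat3 and Stat2 lie higher in every RANKL library, at 112 CPM or more for Stat2 against at most 91.9 CPM in control, and Stat5b lies lower, at 116 CPM or less against at least 368 CPM.

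**Figure D2:**
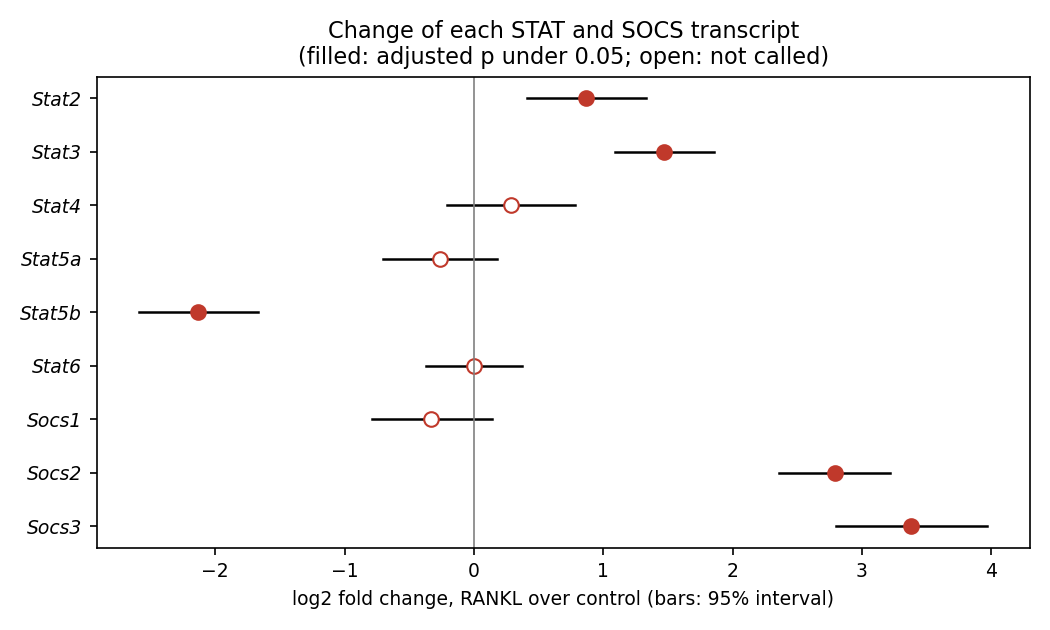
Log2 fold change of each member, RANKL over control, with its 95% interval from the edgeR fit of 3 libraries a group. Changes run from -2.13 for Stat5b to 3.38 for Socs3, and the intervals of the open points, Stat4, Stat5a, Stat6 and Socs1, include 0.

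Among the inhibitors, Socs3 changed most. Socs3, a feedback inhibitor that binds the shared receptor chain gp130 of the interleukin 6 family (Entrez gene 12702, chromosome 11, 117966079 to 117970336 in GRCm38, minus strand), had 194, 350 and 233 CPM in RANKL replicates 1, 2 and 3, against 30.0, 23.8 and 20.7 CPM in control replicates 1, 2 and 3. Every RANKL library lay above every control library, and RANKL replicate 2 was the highest. The means were 259 ± 81.5 CPM in RANKL and 24.8 ± 4.72 CPM in control (SD, n = 3 each), 10.4-fold higher, or 3.38 ± 0.26 on the log2 scale (SE; adjusted p = 9.95e-06 by edgeR).

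Socs2, an inhibitor of growth hormone and STAT5 signals (Entrez gene 216233, chromosome 10, 95383903 to 95417321, minus strand), had 65.2, 95.1 and 80.1 CPM in RANKL and 11.1, 11.1 and 12.5 CPM in control. The groups were apart in every library, with the control values close together. The means were 80.1 ± 14.9 CPM in RANKL and 11.6 ± 0.833 CPM in control (SD, n = 3 each), 6.93-fold higher, or 2.79 ± 0.19 on the log2 scale (SE; adjusted p = 6.52e-06 by edgeR). Of the 50-base windows in its longest annotated transcript, 18.4% also occur in the pseudogene Gm9847, so a share of its reads could have been split or dropped in counting.

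Socs1, the inhibitor of interferon gamma and common gamma chain cytokine signals (Entrez gene 12703, chromosome 16, 10783808 to 10785536, minus strand), did not pass the test. It had 73.8, 57.3 and 91.2 CPM in RANKL and 112, 83.7 and 83.0 CPM in control, and RANKL replicate 3 lay above control replicates 2 and 3. The log2 fold change was -0.33 ± 0.21 (SE; adjusted p = 0.19 by edgeR), with a 95% interval of -0.79 to 0.14. That interval holds both no change and a decrease.

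The promoter windows of Socs3 and Socs1 are shown because Socs3 rose and Socs1 did not pass the test, and because Socs3 was the single member whose window held the spacing that STAT dimers prefer. The windows come from RefSeq on GRCm38.p6 and run from 250 bases before to 50 bases after a transcript start. Windows were found for 8 of the 9 members, 11 windows in all, and Socs2, which also rose, was the member without one. The motif TTCNNNGAA reads the same on both strands, capitals mark it, and N is any base. The Socs3 window is chr11:117969317-117969616 and the Socs1 window chr16:10785487-10785786, both on the minus strand, written 5′ to 3′.
Socs3: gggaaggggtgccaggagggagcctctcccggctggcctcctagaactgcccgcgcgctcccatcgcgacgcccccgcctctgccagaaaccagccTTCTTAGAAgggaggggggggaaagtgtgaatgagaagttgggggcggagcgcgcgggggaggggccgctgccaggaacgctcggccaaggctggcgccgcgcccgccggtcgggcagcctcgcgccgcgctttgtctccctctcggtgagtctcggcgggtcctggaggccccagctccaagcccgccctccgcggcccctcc
Socs1: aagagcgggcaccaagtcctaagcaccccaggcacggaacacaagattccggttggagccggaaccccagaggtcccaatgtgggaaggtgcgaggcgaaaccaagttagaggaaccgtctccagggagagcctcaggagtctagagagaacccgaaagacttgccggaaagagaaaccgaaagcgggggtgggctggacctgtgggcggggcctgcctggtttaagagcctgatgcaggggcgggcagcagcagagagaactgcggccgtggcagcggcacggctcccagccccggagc
The transcript start of the Socs3 window lies inside the gene span given above, downstream of its outermost 5′ end. The Socs3 window held 1 match, from 154 to 146 bases before that transcript start. The other 10 member windows held none. The motif was present in 8.3% of all 32851 RefSeq windows, so a match is common, and it is a description of letters, not a measured binding site. Any link between the match and the rise of Socs3 was not tested. The related motif with 1 more base between TTC and GAA, which STAT6 prefers, occurred in the Stat2 window alone among the members and in 6.95% of all windows.

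Among the STAT genes, Stat3 had the highest CPM of the members in RANKL. Stat3 (Entrez gene 20848, chromosome 11, 100886806 to 100939594, minus strand) had 599, 619 and 610 CPM in RANKL and 258, 193 and 208 CPM in control. The RANKL libraries lay close together, and all were above the controls. The means were 609 ± 9.79 CPM in RANKL and 220 ± 34.0 CPM in control (SD, n = 3 each), 2.77-fold higher, or 1.47 ± 0.17 on the log2 scale (SE; adjusted p = 7.87e-05 by edgeR).

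Stat2, the interferon-specific STAT (Entrez gene 20847, chromosome 10, 128270498 to 128292853, plus strand), rose less. It had 157, 112 and 167 CPM in RANKL and 83.1, 91.9 and 62.8 CPM in control, again with no overlap between the groups. RANKL replicate 2 came closest to the controls. The log2 fold change was 0.87 ± 0.21 (SE; adjusted p = 0.00463 by edgeR), or 1.83-fold. Tested against a 1.5-fold change rather than against none, Stat2 was not called (edgeR adjusted p = 0.0686).

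The paralogs Stat5a and Stat5b, near-identical factors of interleukin 7, interleukin 2 and growth hormone signals, differed in their outcome. Stat5b fell and Stat5a did not pass the test. Stat5b (Entrez gene 20851, chromosome 11, 100780731 to 100859004, minus strand) had 79.8, 77.3 and 116 CPM in RANKL and 449, 368 and 377 CPM in control. All RANKL values were far below all control values, and RANKL replicate 3 was the highest of the RANKL libraries. That library also had the most general T cell marker reads, 753 CPM against 293 and 350 CPM in RANKL replicates 1 and 2. RANKL replicates 1 and 2 stood in the opposite order for Stat5b and for these markers, and a link was not tested. The means were 90.9 ± 21.4 CPM in RANKL and 398 ± 44.2 CPM in control (SD, n = 3 each), 4.38-fold lower, or -2.13 ± 0.20 on the log2 scale (SE; adjusted p = 2.67e-05 by edgeR). Its neighbour Stat5a (Entrez gene 20850, chromosome 11, 100859351 to 100885169, plus strand), which starts only 346 bases away and runs in the opposite direction, had 127, 86.8 and 130 CPM in RANKL and 159, 128 and 124 CPM in control. The Stat5a groups overlapped, and its log2 fold change was -0.26 ± 0.19 (SE; adjusted p = 0.269 by edgeR) with a 95% interval of -0.70 to 0.18.

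How far reads can tell the STAT5 genes apart depends on their shared sequence, and the longest shared stretch is shown for that reason. A run of 324 bases is identical in the longest annotated coding transcripts of Stat5a and Stat5b. Its first 275 bases are printed 5′ to 3′ in the sense direction after the 25 bases before it, from the GENCODE transcript of Stat5a on GRCm38. In Stat5a the printed stretch lies in coding exons 6 to 9, chr11:100865501-100874934 on the plus strand, with introns left out. Its counterpart in Stat5b lies in coding exons 5 to 8, chr11:100797790-100801411 on the minus strand. The capital marks the only base of the 300 that differs.
Stat5a: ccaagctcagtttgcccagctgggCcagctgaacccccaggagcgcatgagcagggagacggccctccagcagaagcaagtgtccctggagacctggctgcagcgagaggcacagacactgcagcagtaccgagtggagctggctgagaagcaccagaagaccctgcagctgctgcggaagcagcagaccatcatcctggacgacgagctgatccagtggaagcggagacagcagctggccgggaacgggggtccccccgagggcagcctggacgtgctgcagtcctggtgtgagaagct
Counted from 1 at the 5′ end, with the base of Stat5a first, the difference is C25A. Over the whole transcripts, 15.8% of the 50-base windows of Stat5a and 11.8% of those of Stat5b are shared with the other gene. Reads from these windows could be assigned to either gene or dropped, and the rule used is not given in the sources used here. With both genes counted as 1, an alternative added after the values were seen, the log2 fold change was -1.38 ± 0.20 (SE; adjusted p = 0.000237 by edgeR).

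Stat6 and Stat4 did not pass the test. Stat6 (Entrez gene 20852, chromosome 10, 127642955 to 127660987, plus strand) had 164, 200 and 182 CPM in RANKL and 210, 175 and 160 CPM in control, so the groups lay across each other. Its means were 182 ± 18 CPM in RANKL and 182 ± 25.5 CPM in control (SD, n = 3 each), and its 95% interval ran from -0.37 to 0.37 on the log2 scale (edgeR adjusted p = 0.991). Stat6 overlaps Nab2 on the other strand, and Nab2 had 34.5, 39.7 and 39.1 CPM in RANKL and 70.9, 59.8 and 67.8 CPM in control. The library kit keeps strand, but the strand setting of the counting is not given, and reads in the overlap cannot be placed. The same holds for Stat5a and Stat3, whose ends overlap in GENCODE but lie 1636 bases apart in the RefSeq coordinates printed here. Stat4 (Entrez gene 20849, chromosome 1, 51987106 to 52107189, plus strand) was the least abundant member in RANKL, at 20.8, 29.4 and 34.7 CPM in RANKL and 19.7, 24.9 and 25.1 CPM in control. RANKL replicates 2 and 3 lay above all controls and RANKL replicate 1 did not, and the log2 fold change was 0.29 ± 0.22 (SE; adjusted p = 0.281 by edgeR), with a 95% interval of -0.21 to 0.78. Of its 50-base windows 28.6% are shared with Gm28177, a transcript annotated at the same place.

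Set against each other per length, the members changed order. Levels here are CPM divided by the kilobases of exon that GENCODE annotates (RPKM), as mean ± SD of 3 libraries. In RANKL the order was Socs3 at 101 ± 32.0, Stat3 at 97.8 ± 1.57, Stat6 at 48.2 ± 4.78, Stat2 at 33.0 ± 6.65, Socs2 at 29.7 ± 5.54, Stat5a at 28.9 ± 6.05, Socs1 at 25.5 ± 5.84, Stat5b at 16.4 ± 3.87 and Stat4 at 8.99 ± 2.22. In control it was Stat5b at 71.9 ± 7.98, Stat6 at 48.1 ± 6.77, Stat3 at 35.3 ± 5.45, Stat5a at 34.5 ± 4.83, Socs1 at 32.0 ± 5.71, Stat2 at 18 ± 3.39, Socs3 at 9.74 ± 1.85, Stat4 at 7.38 ± 0.982 and Socs2 at 4.28 ± 0.309. Neighbours whose order differed between libraries were Socs3 and Stat3, Stat2 and Socs2, and Socs2 and Stat5a in RANKL, and Stat3 and Stat5a in control. The ranges of Stat5a and Socs1 in both groups, and of Socs1 and Stat5b in RANKL, overlapped across libraries, but the first of each pair was higher in all 3 libraries. For Socs1 the GENCODE exon length, 2908 bases, is longer than the whole RefSeq span given above. The annotation behind the counts is not given. A shorter length would raise Socs1 in both groups, so its place in either order is uncertain.

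The balance within each family shifted while the STAT total moved little. The 6 STAT members together reached 228, 223 and 249 RPKM in RANKL and 243, 205 and 197 RPKM in control, which overlap. Stat3 made up 42.0% ± 2.57 of that sum in RANKL and 16.4% ± 1.06 in control, and Stat5b 6.99% ± 1.22 in RANKL and 33.4% ± 1.05 in control (SD, n = 3 each). The 3 SOCS members together reached 125, 192 and 152 RPKM in RANKL and 54.4, 42.2 and 41.3 RPKM in control, with no overlap. Socs3 held 63.9% ± 6.49 of that sum in RANKL and 21.1% ± 1.29 in control, and Socs1 held 17% ± 5.88 in RANKL and 69.4% ± 1.36 in control (SD, n = 3 each). A shorter length for Socs1 would raise its share and lower that of Socs3 in both groups.

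**Figure D3:**
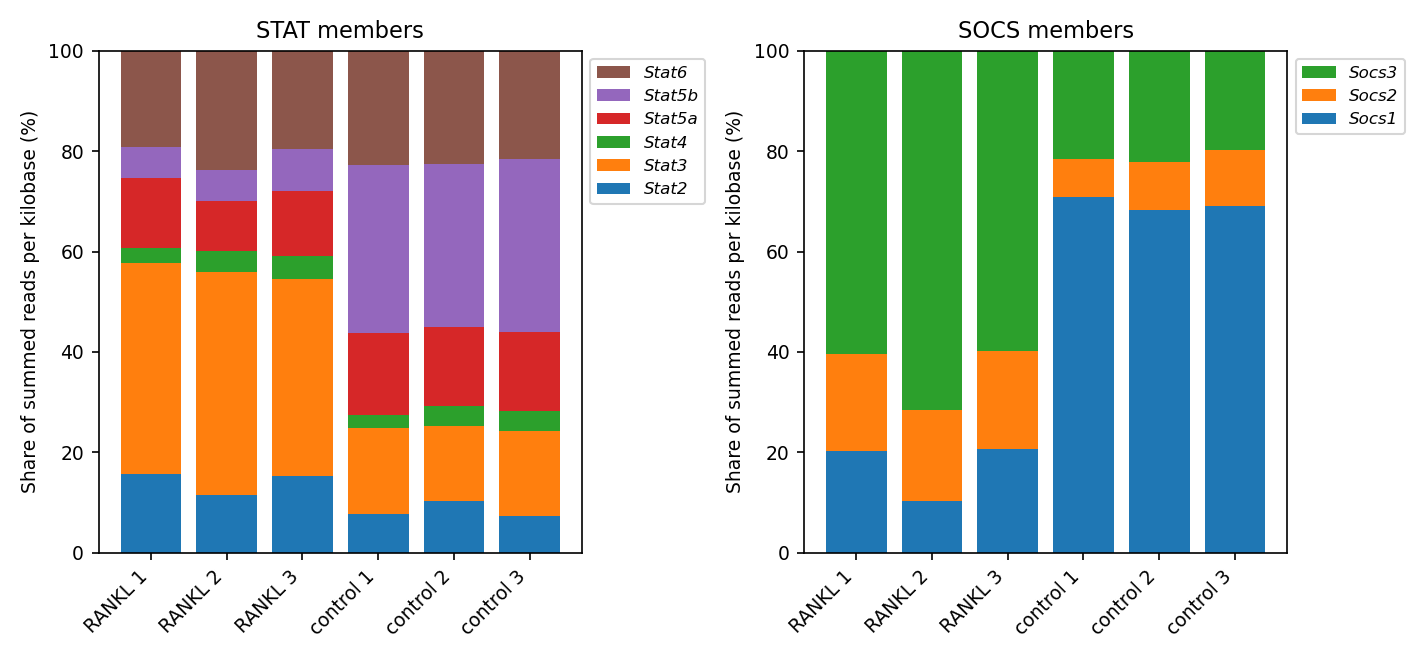
Share of each member in the summed reads per kilobase of its family, in percent, for each of the 3 RANKL and 3 control libraries, with STAT members on the left and SOCS members on the right. Stat3 averages 42.0% of the STAT sum in RANKL and 16.4% in control, and Socs3 63.9% of the SOCS sum in RANKL and 21.1% in control. The SOCS shares depend on the exon length taken for Socs1.

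Ratios of reads within a library do not depend on how libraries are scaled, and 4 were compared. The ratio of Stat5a to Stat5b reads was 1.59, 1.12 and 1.12 in RANKL and 0.354, 0.348 and 0.328 in control. Stat5a thus had more reads than Stat5b in each RANKL library and fewer in each control library. Socs3 had 0.323, 0.566 and 0.381 reads per Stat3 read in RANKL and 0.116, 0.123 and 0.0998 in control, higher in each RANKL library. Socs3 had 2.63, 6.12 and 2.55 reads per Socs1 read in RANKL and 0.268, 0.285 and 0.250 in control. On the log2 scale the mean differences, RANKL minus control, were 1.88 for Stat5a over Stat5b, 1.87 for Socs3 over Stat3 and 3.69 for Socs3 over Socs1. An exact two-sided permutation test gave p = 0.10 for each of these 3, the smallest it can give with 3 libraries against 3, and 0.13 after Benjamini-Hochberg adjustment over the 4 ratios. The ratio of Stat4 to Stat6 overlapped between groups, with a difference of 0.26 (exact permutation p = 0.50).

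**Figure D4:**
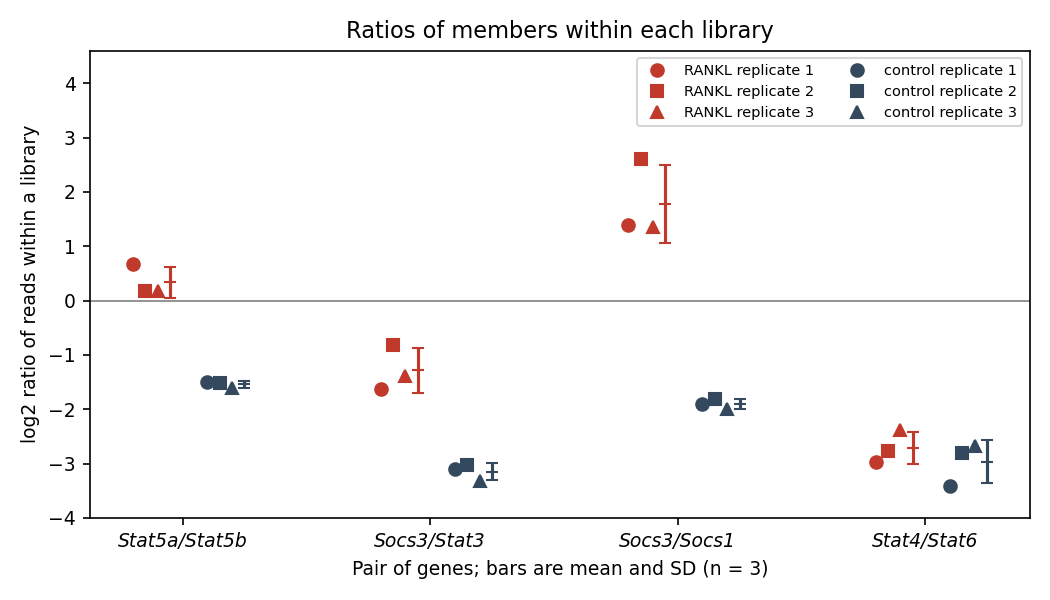
Log2 ratio of the reads of 2 members within each library, with RANKL libraries to the left of control libraries and bars for mean and SD of 3 libraries. Stat5a over Stat5b, Socs3 over Stat3 and Socs3 over Socs1 do not overlap between groups, by mean differences of 1.88, 1.87 and 3.69, while Stat4 over Stat6 overlaps.

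The members also varied among the RANKL libraries. RANKL replicate 2 was highest for Stat3, Stat6, Socs2 and Socs3 and lowest for Stat2, Stat5a, Stat5b and Socs1. The same library had the highest summed epithelial, neutrophil, macrophage and fibroblast markers, with 8064, 5751, 2097 and 7650 CPM. Single markers, named after their values were seen, did not all follow. Epcam, Ltf, Csf1r, C1qa, C1qb, Pdgfra and Dcn were highest in RANKL replicate 1, and Aire, Ngp and Emr1 in RANKL replicate 3. The other markers of these lists were highest in RANKL replicate 2, among them Mrc1 of the macrophage list, at 658 CPM against 181 and 202 CPM. RANKL replicate 3 was highest for Stat2, Stat4, Stat5a, Stat5b and Socs1, and had the most double-positive thymocyte and general T cell marker reads, with 1151 and 753 CPM. Replicates within a group have no order, and no test was made of these differences, which rest on 1 library each.

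The genes whose profile over the 6 libraries lay closest to each member were found by the root-mean-square difference of log2 CPM, each gene centred on its own mean, among 12914 genes. Gpr35, a G protein-coupled receptor, was closest to Socs3 (0.11), and Rhoc, a small GTPase, to Socs2 (0.08). Plvap, an endothelial vesicle protein, was closest to Stat3 (0.07), Apol6 to Stat2 (0.10) and Pdxp, a pyridoxal phosphatase, to Stat5b (0.08). Lrch1 was closest to Stat5a (0.08), Cblb, a ubiquitin ligase that restrains T cell activation, to Stat6 (0.03), Kmo, an enzyme of tryptophan breakdown, to Stat4 (0.06) and Wdfy4 to Socs1 (0.08). With 6 libraries in 2 groups the measure includes the group difference itself, and it is a description.

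Around the members, 95 other genes of the pathway in 11 lists were read from the same fit, 93 of which were tested. For comparison, 33.8% of all tested genes were higher and 29.6% lower, with a median log2 fold change of -0.02. Cytokine ligands that signal through STAT proteins rose in 13 of 16 tested, with a median log2 fold change of 3.41. Il12a, a subunit of interleukins 12 and 35, had 18.4 ± 5.09 CPM in RANKL and 1.5 ± 0.123 CPM in control, and Il13, a type 2 cytokine, 35.1 ± 9.64 CPM in RANKL and 3.81 ± 1.57 CPM in control (SD, n = 3 each). Csf2, the growth factor GM-CSF, rose by 3.63 ± 0.40 and Osm, oncostatin M of the interleukin 6 family, by 3.72 ± 0.45 on the log2 scale (SE). Il7, Il12b and Ifng, named after their values were seen, were not called, at -0.44, 0.79 and 0.75, and Il2 had too few reads to be tested. Il12b was called higher without RANKL replicate 2 (edgeR adjusted p = 0.0303) and Il7 lower without control replicate 1 (0.0319). Il4, also named after its values were seen, rose by 1.70, and its call was lost without RANKL replicate 3 (1.28, edgeR adjusted p = 0.0536) and with a block for the title number (1.41, 0.0669), which left 12 ligands higher.

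Receptor genes split. Of 22, 12 rose, 3 fell and 7 did not pass the test, and their median log2 fold change was 0.94. Csf2rb, the shared beta chain of the GM-CSF and interleukin 3 and 5 receptors, had 386 ± 55.2 CPM in RANKL and 50.2 ± 12.9 CPM in control, and Il13ra1 180 ± 36.1 CPM in RANKL and 39.7 ± 3.60 CPM in control (SD, n = 3 each). Csf2rb has a close copy in the mouse genome, so its value is uncertain. Il22ra1, the epithelial receptor chain of interleukin 22, rose by 4.68 ± 0.46 and Il2ra by 1.51 ± 0.17 (SE). The 3 receptor genes that fell, named after their values were seen, were Ifngr1, a chain of the interferon gamma receptor, at -1.44, Il12rb1, at -1.46, and Il2rg, the common gamma chain, at -0.87.

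The Janus kinases also split. Jak2 had 322 ± 76.9 CPM in RANKL and 147 ± 9.97 CPM in control and rose by 1.13 ± 0.20, while Jak1, with 309 ± 5.41 CPM in RANKL and 463 ± 61.2 CPM in control, fell by 0.59 on the log2 scale (edgeR adjusted p = 0.000836 and 0.0107). Jak3, the partner of the common gamma chain, was not called at 0.64 ± 0.29, nor was Tyk2 at -0.00 ± 0.17. Jak3 was called higher with the block for the title number (0.82, edgeR adjusted p = 0.0439) and without RANKL replicate 1 (0.91, 0.0143) or control replicate 2 (0.92, 0.0286). Of the 5 other SOCS family genes, Cish, a STAT5 target and inhibitor, rose to 187 ± 15.8 CPM in RANKL, against 26.4 ± 4.77 CPM in control, 2.83 ± 0.18 on the log2 scale (SE; adjusted p = 5.53e-06 by edgeR). Socs4 and Socs7 fell, with log2 fold changes of -1.25 and -1.10, and Socs5 and Socs6 were not called, at 0.29 and 0.40. Socs6 was called higher with upper-quartile scaling (edgeR adjusted p = 0.0395).

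Of the PIAS and phosphatase genes 5 fell and 2 rose. Among the PIAS genes, SUMO ligases that bind STAT proteins, Pias1, Pias2 and Pias4 fell, with log2 fold changes of -0.90, -0.78 and -0.46, and Pias3, the inhibitor of STAT3, rose by 0.78 ± 0.17. The call of Pias4 was lost with upper-quartile scaling (edgeR adjusted p = 0.0959), with the CPM filter (0.0515) and without control replicate 1 (0.118) or RANKL replicate 1, 2 or 3 (0.113, 0.108 and 0.0961). Of 5 phosphatases, Ptprc, which encodes the leukocyte protein CD45, had 298 ± 101 CPM in RANKL and 1061 ± 56.1 CPM in control and fell by 1.83, and Ptpn6, the haematopoietic phosphatase SHP-1, fell by 0.66, a call lost without RANKL replicate 1 (edgeR adjusted p = 0.0536). Ptpn1 rose by 0.77 ± 0.18, and Ptpn2 and Ptpn11 were not called, at 0.28 and -0.12.

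**Figure D5:**
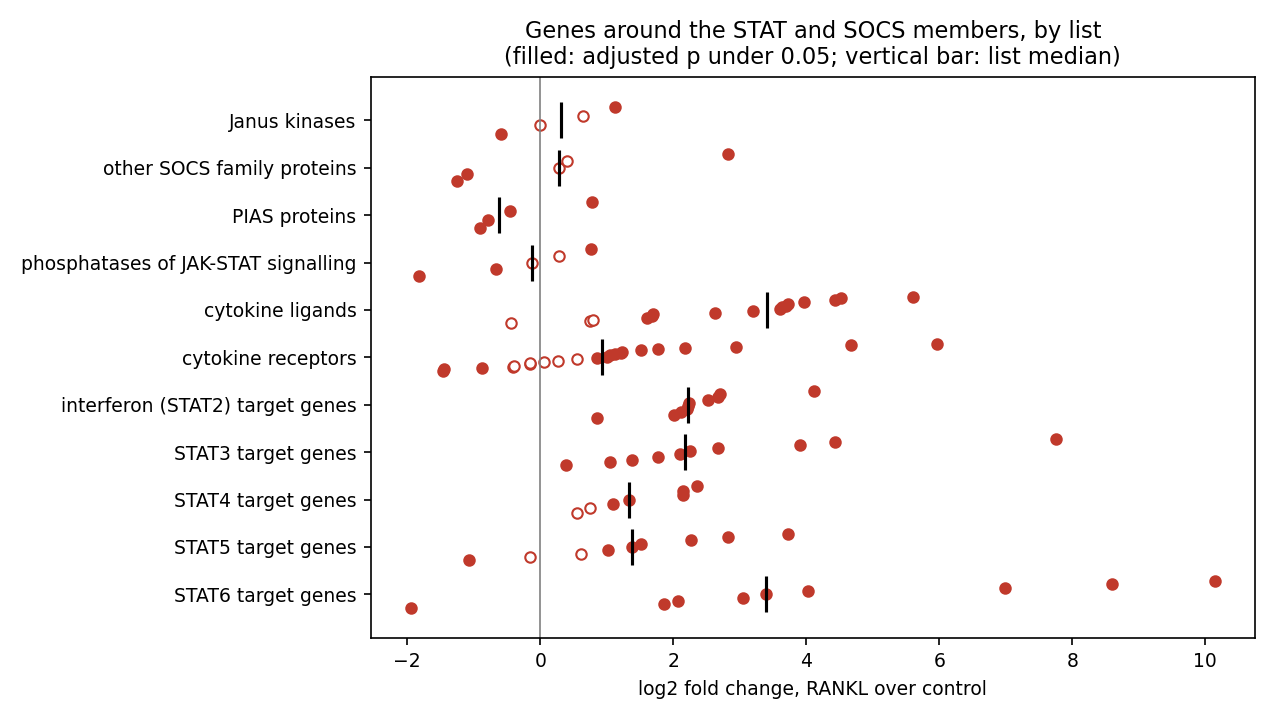
Log2 fold change, RANKL over control, of the 93 tested pathway genes by list, 1 point a gene, some genes standing in more than 1 list, with filled points called at an adjusted p under 0.05 and a bar at the list median. The medians run from -0.62 for PIAS proteins to 3.41 for cytokine ligands, and those of the target lists lie between 1.34 and 3.39.

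Genes known as targets of the STAT members were mostly higher, including those of members that did not rise, where 33.8% of all tested genes were higher. The lists share genes with one another and with genes that neutrophils, macrophages and epithelium make, whose markers also rose. All 10 interferon targets that STAT2 serves rose, with a median of 2.22. Rsad2, the antiviral enzyme viperin, had 67.7 ± 16.8 CPM in RANKL and 3.89 ± 0.265 CPM in control, and Isg15, a ubiquitin-like modifier, 202 ± 9.20 CPM in RANKL and 30.8 ± 4.66 CPM in control (SD, n = 3 each). Oas1a and Oasl2, of the oligoadenylate synthetase family, rose by 2.67 ± 0.16 and 2.23 ± 0.17, and Oas1a has close copies that could share its reads.

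All 10 STAT3 targets rose, with a median of 2.17. Bcl3, an NF-kB cofactor, had 80.9 ± 3.35 CPM in RANKL and 17.1 ± 2.66 CPM in control, Junb, an AP-1 subunit, 356 ± 30.7 CPM in RANKL and 83.0 ± 11.1 CPM in control, and Saa3, an acute phase protein, 113 ± 24.5 CPM in RANKL and 5.20 ± 2.72 CPM in control (SD, n = 3 each). Lcn2, an iron-sequestering protein of neutrophils and epithelium, rose by 7.75 ± 0.42. Pim3, named after its values were seen, rose least, by 0.39 ± 0.15, and its call was lost without any single library except control replicate 3, where edgeR adjusted p ran from 0.0619 to 0.158, with no filter (0.14), with the block for the title number (0.0937) and with DESeq2 (0.075).

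Of 7 STAT4 targets 5 rose and 2 were not called, with a median of 1.34. Hlx, a homeobox factor, had 29.0 ± 2.97 CPM in RANKL and 5.68 ± 1.44 CPM in control, and Furin, a protease that T cells and many other cells make, had 264 ± 67.7 CPM in RANKL and 59.9 ± 11.6 CPM in control (SD, n = 3 each). Il18r1 and Il18rap, the chains of the interleukin 18 receptor, rose by 1.34 ± 0.16 and 2.15 ± 0.27. Il12rb2, one of the uncalled genes and named after its values were seen, was called higher without control replicate 1 (edgeR adjusted p = 0.0183).

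Of 9 STAT5 targets 6 rose, 1 fell and 2 were not called, with a median of 1.38, beside the fall of Stat5b. Igf1, a growth hormone target that macrophages and stroma also make, had 129 ± 17.8 CPM in RANKL and 26.9 ± 2.36 CPM in control (SD, n = 3 each). Cish, Il2ra and Osm are given above. Foxp3, named after its values were seen, rose by 1.02, and its call was lost without RANKL replicate 3 (0.81, edgeR adjusted p = 0.0574) or control replicate 2 (0.89, 0.0653), as it was when title number ranges were blocked (0.95, 0.0646). Ccnd2, also named after its values were seen, was not called at 0.61 but was called higher without RANKL replicate 2 (edgeR adjusted p = 0.0213) or control replicate 1 (0.0321). Bcl2l1, the survival gene of double-positive thymocytes, named after its value was seen, fell by 1.07. Of 9 STAT6 targets tested, 8 rose and 1 fell, with a median of 3.39, while Stat6 was at 0.00. Ccl24, an eosinophil chemokine, had 341 ± 179 CPM in RANKL and 2.67 ± 0.376 CPM in control, and Ccl17 58.2 ± 17.8 CPM in RANKL and 3.54 ± 0.495 CPM in control (SD, n = 3 each). Arg1, arginase 1, rose by 10.14 ± 0.52 and Chil3, a chitinase-like protein with near-identical copies, by 8.60 ± 0.60, or by 9.27 without control replicate 1. Gata3, a T lineage factor that STAT6 induces in helper cells, named after its value was seen, fell by 1.94. All 7 general T cell markers were lower too, and a link of either the rises or the fall in this list to cell content was not tested.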

How the data were processed

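Whole thymus RNA was sequenced from stranded mRNA libraries made with 250 ng of RNA, per the labels' protocols. The authors deposited unnormalised read counts, 1 value for each gene in each library. STAR and mm10 are named in the submitters' processing notes. How reads were counted, with which strand setting and on which annotation, is not given in the sources used here. Replicate numbers follow accession order and link no samples across groups. Nothing in the labels says that libraries came from separate animals, so the p-values may measure technical spread alone. Libraries of 1 group differed beyond counting error (chi-square over degrees of freedom, 31.7 to 67.9).

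Genes passing filterByExpr were tested by edgeR 4.0.16 in R 4.3.3, with TMM factors, robust quasi-likelihood dispersions and no covariate. The tests were two-sided. Adjustment (Benjamini-Hochberg) ran over 16096 genes at a threshold of 0.05. Standard errors come from the F statistic, and intervals from its degrees of freedom. The code was tested on simulated counts. The members, gene lists and tests were chosen with earlier results of these data known. Named genes were all members, every gene of a list of 5 or fewer, up to 4 called genes of each other list with the smallest p, and the closest profile to each member among genes whose log2 CPM averaged 1 or more. Genes outside this rule whose levels are given are marked in the text, apart from Tnfsf11, the gene of RANKL, and Nab2, which overlaps Stat6. Lists were matched by symbol, with Adgre1 found as Emr1, and no set test was made. Coordinates and promoters are from RefSeq on GRCm38.p6, the assembly of mm10, and exon lengths and transcripts from GENCODE M21. Alternatives were other scalings and filters, DESeq2 1.42.0, limma-voom (limma 3.58.1), a block for how the title numbers fall into ranges, a threshold of 0.01, a test against a 1.5-fold change and each library left out.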

Additional observations from a re-analysis of the deposited data

How the results depend on the processing

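Under 17 alternatives to the fit, 4 members were called higher and Stat5b alone lower, except with the test against a 1.5-fold change, where 3 were higher because Stat2 was not called (log2 fold change 0.87, adjusted p = 0.0686). That test also called fewer genes lower, 2654 against 4765. Among the pathway genes it lost the calls of Jak1, Pias2, Pias3, Pias4, Ptpn1, Ptpn6, Il2rg, Pim3, Foxp3 and Il6ra. Il6ra was named after its values were seen. At a threshold of 0.01 the calls of Jak1, Pias4, Ptpn6, Il4, Pim3 and Foxp3 were lost. Stat6, at 0.00, turned to -0.08 with no low-count filter, -0.02 with DESeq2, -0.01 with the block for the title number and between -0.10 and 0.11 with 1 library left out, and was called under none. Upper-quartile factors moved the median of all genes to 0.08, against -0.02 with TMM factors, and changed no member's call. With 1 library left out, log2 fold changes ran from 0.71 to 1.04 for Stat2, 1.36 to 1.58 for Stat3, 0.14 to 0.50 for Stat4, -0.34 to -0.08 for Stat5a, -2.31 to -2.01 for Stat5b, -0.47 to -0.16 for Socs1, 2.66 to 2.96 for Socs2 and 3.12 to 3.60 for Socs3. The cause of these moves was not tested. The replicate numbers follow accession order and were not used as a block. The block for the title number changed no member's call, and of its 3 ranges 2 held both groups, the other being control replicate 2 alone. With 3 libraries a group no exact test of a ratio can reach the threshold, and reads of Stat5a and Stat5b may be shared.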
